A study of Mus musculus with 8 samples.

Results

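The array used here carries 16194 probes that have no gene or transcript name and are labelled with a chromosome interval, out of 55681 non-control probes in all. They were chosen by that label alone, with no measured value involved. The 16194 probes carry 4610 distinct interval names on chromosomes 1 to 19 and X of the mm9 mouse assembly. A suffix F or R, taken here as the forward or reverse strand, ends all of the names but 3, which have 13 probes. Intervals of this kind are meant to mark transcribed regions between known genes. Whether a given interval lies outside genes was not examined, because no annotation of the mm9 build was used here.

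Long noncoding RNAs transcribed between genes are made by RNA polymerase II, are often spliced and polyadenylated like messenger RNAs, and are known to be expressed at lower levels and in fewer cell types than coding genes. Many were first mapped as chromatin domains with promoter and elongation marks that matched no annotated gene. In cells of the myeloid lineage some are known to be induced by Toll-like receptor ligands and to act on inflammatory genes. A probe reads 1 short stretch of 1 strand, so several probes of an interval sample different parts of the same region.

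The cells were dendritic cells grown from bone marrow of female C57BL/6 mice. Immature cells had been cultured for 6 days in GM-CSF at 10 ng/ml with IL-4 (4 arrays). The mature group carried the same cytokine history plus overnight lipopolysaccharide (LPS) at 50 ng/ml, and the labels mark it as day 7 (4 arrays). LPS is a component of the Gram-negative outer membrane that is sensed by Toll-like receptor 4. No cells were held to day 7 without LPS, so LPS and the extra night cannot be told apart. The labels do not say whether the 4 samples of a group came from separate animals or cultures, and p-values measure only the spread between these samples.

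Levels below are log2 processed signals minus the 75th percentile of the same array, so a level of 0 equals that percentile. That percentile was a processed signal of 450 to 491 in immature and 392 to 421 in LPS-treated samples. No non-control spot was saturated, and the number of arrays limits the precision. Il6 and Irf7, a cytokine gene and an interferon regulator known to be induced by LPS, rose by 5.59 ± 0.28 and 6.33 ± 0.11 (SE, n = 4 per group; limma adjusted p = 3.35e-06 and 5.54e-08). The other genes examined as a check of the labels had log2 changes of 2.91 (Cd40), 1.93 (Cd86), 2.12 (Ccr7), -0.99 (Itgax), -0.75 (H2-Aa) and -4.23 (Mrc1). All 9 dendritic cell markers examined, among them Itgax, Cd74 and Zbtb46, were above background on all 8 arrays, as were the 5 macrophage markers. Of 5 neutrophil markers, 4 had a matched probe, all 4 were above background on all 8 arrays, and all 4 fell; their summed linear signal relative to the 75th percentile was 615 to 693 on the immature and 235 to 427 on the LPS arrays. Of the B cell, T cell, natural killer, erythroid and mast cell markers, 1 T cell gene (Cd3e) and 1 mast cell gene (Cpa3) were above background on all 8 arrays. Cpa3 fell by 1.96, and the summed mast cell signal was 1.34 to 2.23 in immature and 0.229 to 0.859 in LPS-treated samples. The natural killer marker Klrb1c and the erythroid marker Hba-a1 were called lower and were above background on all 4 immature and no LPS array. The part of these marker shifts in the interval results was not tested. In bulk RNA, fewer cells of a type and less RNA per cell cannot be told apart. Immature replicate 3 stood somewhat apart: over the 3664 interval probes above background on all 8 arrays it correlated with the other immature arrays at 0.967 to 0.988, against 0.983 to 0.995 among those. In both groups replicates 1 and 2 were closest to each other (0.995 in immature and 0.992 in LPS-treated samples). Replicates 3 and 4 were likewise closest to each other (0.988 in both groups).

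Between 27.3% and 33.0% of the interval probes gave a signal well above background, a flag that the scanner software sets per spot. On the immature arrays 33.0%, 31.4%, 28.4% and 33.0% of the interval probes carried the flag in replicates 1 to 4, and on the LPS arrays 28.7%, 27.3%, 28.2% and 29.3%. Immature replicate 3 thus lay inside the range of the LPS arrays, while the other 3 immature arrays lay above it. The lowest signal that earned the flag, relative to the 75th percentile, was -5.00, -4.84, -4.34 and -4.88 on the immature and -4.31, -4.21, -4.22 and -4.37 on the LPS arrays, and the 3 arrays with the lowest limits were the 3 with the most flagged probes. Its part in the detection counts was not tested. Probes matched to RefSeq long noncoding RNA genes (1052 probes) carried the flag at 27.0% to 31.0%, and probes matched to protein-coding genes (26192) at 61.5% to 64.4%. Probe sequences differ in how well they hybridise, so these shares describe probes and not amounts of RNA.

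**Figure D1:**
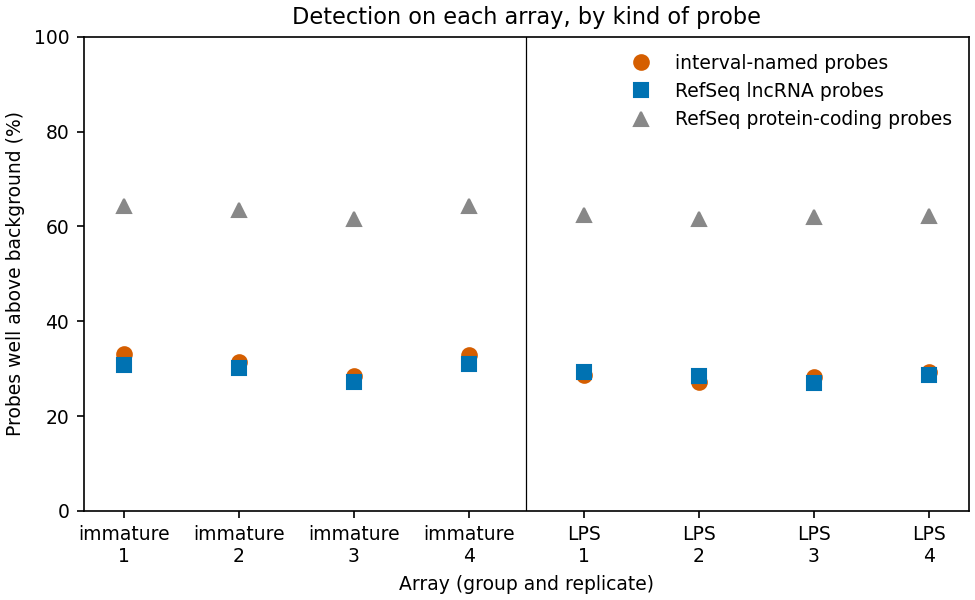
Share of probes flagged well above background (y axis, percent) on each of the 8 arrays (x axis, group and replicate), for interval-named probes (circles), RefSeq long noncoding RNA probes (squares) and RefSeq protein-coding probes (triangles). Interval probes lie between 27.3% and 33.0%, close to the long noncoding RNA probes and below the protein-coding probes at 61.5% or more.

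Over the 8 arrays together, 9225 interval probes (57.0%) were not above background on any array and 3664 (22.6%) were above it on all 8. All 4 immature arrays detected 4277 of them and all 4 LPS arrays 3811. The patterns in between were thinly filled, with 128 probes above background on all 4 immature arrays and no LPS array, and 32 with the reverse pattern. A probe was tested when all 4 arrays of at least 1 group detected it, which kept 4424 interval probes (27.3%). The others have no test, among them both probes with a spot left out as an outlier on LPS replicate 4. Among RefSeq long noncoding RNA probes 290 of 1052 (27.6%) were tested, and among protein-coding probes 16211 of 26192 (61.9%).

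The design asks which transcripts differ once dendritic cells have matured under LPS. Of the 4424 tested interval probes, 882 were called higher and 757 lower after LPS (limma, Benjamini-Hochberg adjusted p under 0.05 over all 25936 probes tested). That is 37.0% called, beside 49.8% of all tested probes, where 26.0% were called higher and 23.8% lower. At least 2-fold changes were called for 291 interval probes upward and 272 downward, 12.7% together, beside 15.9% of all tested probes (8.12% higher and 7.78% lower). The levels of the 2 groups did not overlap for 1522 interval probes (34.4%), beside 47.5% of all tested probes, and 1409 of the 1522 were called. The shares called among tested long noncoding RNA and protein-coding probes were 50.3% and 53.7%. The median standard error of the log2 change was 0.15 for interval, 0.16 for long noncoding RNA and 0.12 for protein-coding probes.

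The typical called change was below 2-fold. Probes called higher had a median log2 change of 0.72 and those called lower -0.77, and the median over all 4424 tested interval probes was 0.03, the same to 2 decimals as over all probes tested. An 8-fold or larger fitted increase was called for 24 interval probes, 10 of them above background on all 8 arrays, and an 8-fold decrease for 3, none of them above background on all 8. The balance of directions rests on how arrays are scaled. With the 75th percentile 53.8% of the called interval probes were higher. The share was 32.1% (551 higher, 1165 lower) with scaling to the array median and 28.2% (502 and 1276) with no scaling, and 67.4% (1114 and 539) with normexp background correction. Over all probes the median log2 change was 0.03 here, -0.15 with median scaling and -0.18 with none, so every change given here takes the 75th percentile as its zero.

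**Figure D2:**
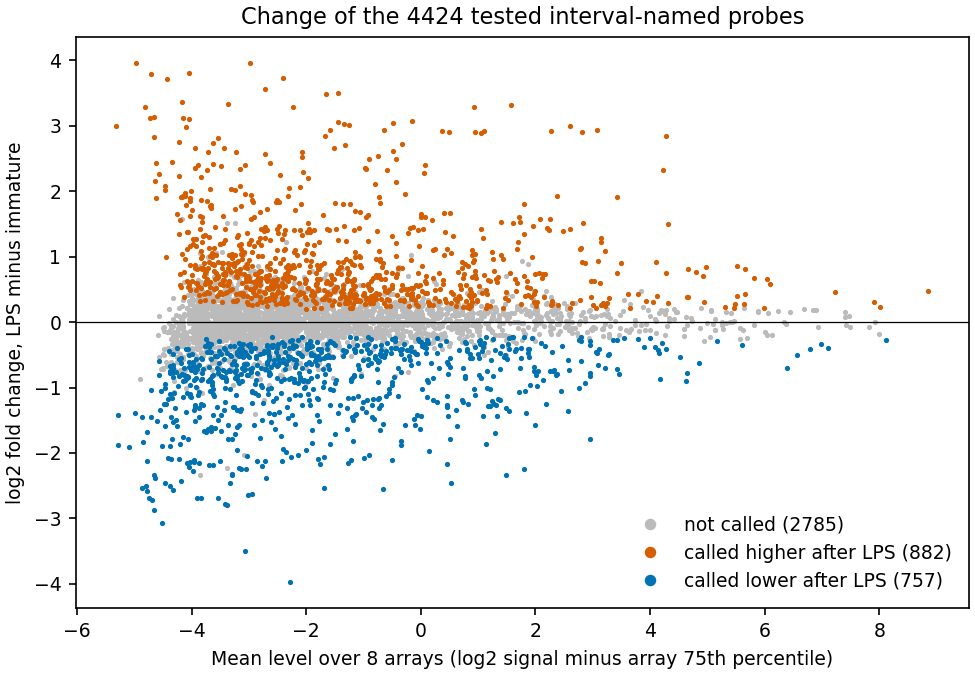
Log2 fold change after LPS (y axis) against the mean level over the 8 arrays (x axis, log2 signal minus the array's 75th percentile) for the 4424 tested interval probes. Colours mark the 882 probes called higher and the 757 called lower, and the probes not called lie between them around 0.

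The largest increases measured on all 8 arrays belonged to 8 separate loci, and in each the 4 LPS arrays lay above the 4 immature arrays. These probes, 1 per locus, were named by size of change among called probes with non-overlapping groups, and each kept its call and direction in all 18 alternative settings. Their sizes and their order depend on the background correction. With normexp the probes on chromosomes 17, 10 and 18 named A_30_P01025123, A_30_P01026001 and A_30_P01025110 had log2 changes of 2.32, 2.27 and 1.90, below those of the chromosome 6 and 16 probes (A_30_P01025572 and A_30_P01018526) at 3.09 and 2.87. Probe A_30_P01025123, in chr17:84397891-84412748 (F), had levels of -3.52, -3.53, -2.50 and -3.19 in immature and 0.10, 0.31, 0.31 and 0.51 in LPS-treated cells. It rose by 3.49 ± 0.23 log2 (SE; limma adjusted p = 1.17e-05), and all 3 probes of that interval were called higher, the other 2 being dim on some immature arrays. Probe A_30_P01026001, in chr10:95772764-95825001 (F), went from -3.40, -3.32, -3.81 and -3.07 to 0.06, 0.18, 0.12 and -0.02. Its log2 change was 3.49 ± 0.15, and the 3 probes of this interval were called higher, the second one measured on all 8 arrays by 1.41. The immature levels of these 2 probes were above background on every array yet more than 2 log2 units below the 75th percentile.

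A locus on chromosome 6 rose on F, and its R probes were above background after LPS alone. Probe A_30_P01025572, in chr6:57583950-57624216 (F), had -0.43, -0.37, 0.32 and 0.18 in immature and 3.28, 3.38, 3.05 and 3.26 in LPS-treated cells, a log2 change of 3.32 ± 0.18 (limma adjusted p = 5.34e-06). All 6 probes of the locus were called higher. The 2 on F had log2 changes of 3.29 and 3.32, and the 4 on R, above background on no immature array, have bounds of at least 3.21-fold to 6.17-fold. One of the R probes, A_30_P01018494, was above background on no immature array and on all 4 LPS arrays. With its immature values of -7.10, -5.63, -5.40 and -5.60 raised to the lowest level called above background, it was at least 6.17-fold higher (LPS levels -1.96, -2.35, -2.40 and -1.84).

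The chromosome 16 locus was read by more probes than the other 7. Its 13 probes lie in 5 overlapping intervals within chr16:84702353-84710928 on both strands, all 13 were tested and all 13 were called higher. The 10 probes above background on all 8 arrays had log2 changes of 2.72 to 2.99, and the 3 others, all in 1 nested R interval, were detected in no immature sample, with bounds of at least 3.84-fold to 4.84-fold. Probe A_30_P01018526 (R) had 1.05, 0.99, 1.29 and 1.08 in immature and 3.72, 3.51, 4.43 and 4.72 in LPS-treated cells, a rise of 2.99 ± 0.26. The immature levels lay close together, whereas the LPS levels were spread more widely, with replicates 3 and 4 highest. Probe A_30_P01024115, in the nested interval chr16:84708005-84708675 (R), passed background in the LPS group alone and was at least 4.84-fold higher (immature -5.42, -5.26, -6.10 and -5.57, LPS -3.12, -2.95, -2.13 and -1.75).

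On chromosome 13 all 7 tested probes of 10 in chr13:15947521-15999246 were called higher. The 4 on F, above background on all 8 arrays, had log2 changes of 2.93 to 3.06, and none of the 3 on R was above background on all 4 immature arrays. Probe A_30_P01023276 (F) went from -2.31, -2.05, -1.09 and -1.30 to 0.82, 0.78, 1.54 and 2.35, a log2 change of 3.06 ± 0.40. In both groups replicates 3 and 4 were above replicates 1 and 2, and the groups did not overlap.

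The other 3 loci were read by fewer probes. Probe A_30_P01025110, in chr18:4415233-4415995 (F), rose by 3.29 ± 0.16, from -3.83, -4.12, -3.69 and -3.82 to -0.18, -0.51, -0.78 and -0.85, and was the 1 tested probe of 3 in its interval. Probe A_30_P01030095, in chr3:117935228-118089771 (F), rose by 3.06 ± 0.46, from -3.36, -3.55, -2.08 and -2.94 to -0.51, -0.82, 0.75 and 0.88, with no other tested probe among the 8 of its locus. Probe A_30_P01022454, in chr17:80133213-80144417 (F), rose by 3.04 ± 0.27, from -2.10, -2.55, -1.17 and -2.20 to 0.96, 1.05, 0.89 and 1.25, and the second tested probe of that interval was called higher by 2.93. For the first 2 of these loci the change therefore rests on a single probe.

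The 8 largest decreases measured on all 8 arrays had log2 changes of -2.54 to -2.10, smaller in size than the 8 increases. In all 8 the LPS arrays lay below the immature arrays, which was a condition of naming them. Each kept its call and direction in all 18 alternatives, with changes of -2.20 to -1.32 under normexp. Probe A_30_P01029532, in chr3:138239464-138241728 (R), fell by 2.54 ± 0.22 (limma adjusted p = 4.66e-05), from 1.01, 1.03, 0.28 and 0.17 to -1.999, -2.11, -1.75 and -1.84, and was the 1 probe of its interval. Probe A_30_P01021337, in chr2:36112819-36114110 (F), fell by 2.10 ± 0.14, from -0.85, -0.92, -0.55 and -0.62 to -3.01, -3.07, -2.60 and -2.66. All 3 probes of that interval were called lower, by nearly the same amount (-2.13 to -2.07). In both of these probes the arrays of a group differed far less than the groups did.

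A chromosome 1 locus of 9 overlapping intervals, chr1:139713316-139913366, held 14 of 18 tested probes called lower and 1 called higher. Probe A_30_P01023370, in chr1:139856545-139857204 (F), fell by 2.17 ± 0.31, from -0.34, -0.53, -0.98 and -0.83 to -3.17, -3.60, -2.18 and -2.40. All 14 were on F, where 16 probes were tested, and the 2 tested R probes had log2 changes of -0.25 and 0.49. The 1 probe called higher was on R, where only 2 of 15 probes were tested. Of the 18 tested probes, 11 were above background on all 8 arrays, and 10 of these were called.

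On chromosome 14 the locus chr14:33895294-34003394 was mixed, with 11 of 17 tested probes called lower and 1 called higher. Of these 17, 11 were above background on all 8 arrays, and 7 of those were called. Probe A_30_P01025307, in chr14:33923944-34003394 (R), fell by 2.45 ± 0.25, from 1.71, 1.47, 1.80 and 2.03 to -1.13, -1.17, -0.37 and -0.13. The 6 tested R probes of the same interval ranged from -2.45 to 0.11. In the overlapping interval chr14:33975934-33998694 (R), 1 probe, above background in immature samples alone, was called lower (at least 1.53-fold) and the other higher (2.65), so probes of 1 strand and 1 interval disagreed there.

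Probe A_30_P01029551, in chr15:61984389-62102500 (F), fell by 2.54 ± 0.35, from -0.60, -0.62, -0.33 and -0.16 to -3.25, -3.90, -2.06 and -2.65. In its locus 8 of 11 tested probes were called lower and none higher, and of the 9 above background on all 8 arrays 6 were called. The 4 tested F probes of its own interval ranged from -2.54 to 0.12, and 2 of them were called. Probe A_30_P01030698, in chr11:16831925-16851121 (R), fell by 2.10 ± 0.30, from 0.57, 0.68, 0.13 and 0.84 to -1.07, -1.07, -1.67 and -2.38, and the second tested probe of 18 in its locus was called lower by 1.71. In the last 2 loci, as in the chromosome 15 locus, other tested probes were not called. Probe A_30_P01033054, in chr5:35893909-35899497 (F), fell by 2.16 ± 0.34, from 1.53, 1.59, 0.98 and 2.07 to -0.08, -0.37, -0.48 and -1.54, and the second tested probe of its locus, on R, had a log2 change of 0.09. Probe A_30_P01030874, in chr7:86662963-86663649 (F), fell by 2.15 ± 0.25, from 0.14, -0.12, -0.67 and -0.16 to -2.23, -2.54, -1.77 and -2.85. In that locus 2 of 6 tested probes were called lower, both in the same interval, whose 3 probes had changes of -2.15 to -0.26.

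**Figure D3:**
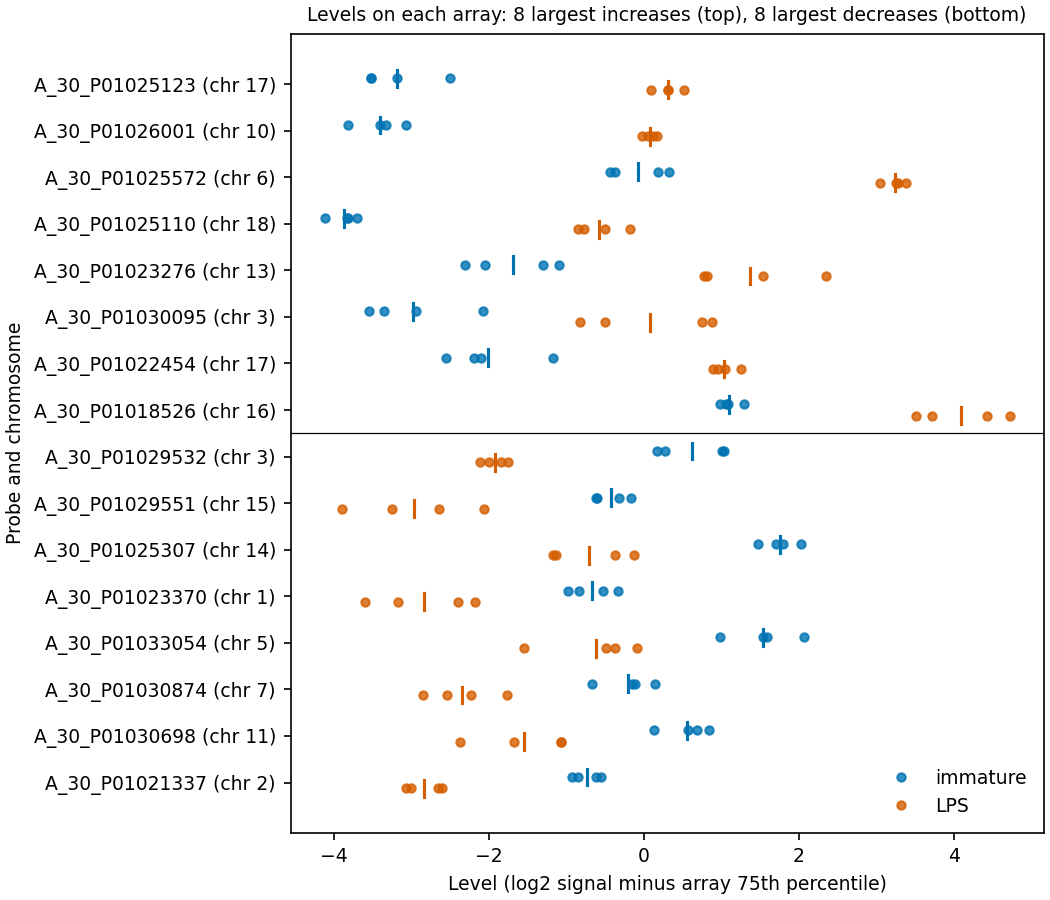
Levels on each of the 8 arrays (x axis, log2 signal minus the array's 75th percentile) of the 8 largest increases and the 8 largest decreases among interval probes above background on all arrays; each point is 1 array, the short bars are the means of 4 arrays, and colours give the group. In all 16 rows the 2 groups do not overlap, which was a condition of naming these probes.

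Some interval probes were above background in 1 group only, and for these only a bound can be given. The 32 probes detected on all 4 LPS arrays and no immature array had bounds whose median was at least 3.01-fold higher. Of the 128 with the reverse pattern, 91 were called and had a bound above 1, with a median of at least 1.59-fold lower. These probes entered the test through the group where they were high, so their calls by themselves are no support for a change. They are nonetheless included in the counts of called probes, also in those of single loci. Of the 882 probes called higher, 762 were above background on all 8 arrays, and of the 757 called lower, 541 were. Beside these counts, 3 immature arrays flagged dimmer spots than any LPS array did. Besides the probes on chromosomes 6 and 16, the largest upward bounds were those of A_30_P01025587, in chr1:94611439-94613779 (R), at least 4.44-fold higher, and A_30_P01031820, in chr1:156646667-156731168 (F), at least 3.54-fold higher. The second tested probe of the latter interval had a log2 change of 0.01. Their measured means were -5.27 and -4.65 in immature and -2.61 and -2.80 in LPS-treated cells.

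The largest downward bound was at chr15:36800254-36809571 (R), where probe A_30_P01025315 had -1.13, -1.21, -1.44 and -1.50 in immature and -5.06, -4.74, -4.46 and -5.02 in LPS-treated cells, at least 7.76-fold lower. All 3 probes of that interval were called lower, and the 1 of them above background on all 8 arrays had a log2 change of -1.02. Probe A_30_P01026926, in chr8:71495043-71525582 (R), was at least 4.74-fold lower, and both probes of its interval were called lower. Probe A_30_P01027572, in chr7:113768215-113783490 (R), was at least 4.26-fold lower, with 2 of 5 tested probes there called lower. The 3 probes there above background on all 8 arrays had log2 changes of -0.45 to -0.27 and were not called. Probe A_30_P01029478, in chr6:40693617-40720167 (F), was at least 3.28-fold lower, and all 5 tested probes of its locus were called lower, all on F. In the chromosome 8 and chromosome 6 loci no tested probe was above background on all 8 arrays.

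The 6 loci with the highest mean signal, chosen for that alone, had log2 changes of -0.27 to 0.48. The order of their signals says nothing of the order of RNA amounts, since each probe has its own sequence. Probe A_30_P01031754, in chr19:5801802-5802597 (R), had 8.47, 8.42, 8.86 and 8.71 in immature and 9.08, 9.07, 9.13 and 9.10 in LPS-treated cells and was called higher by 0.48 ± 0.11 (limma adjusted p = 0.00660). Probe A_30_P01031448, in chr14:78924115-78938125 (F), was called higher by 0.31 ± 0.07 and A_30_P01026458, in chr11:22681800-22707775 (R), lower by 0.27 ± 0.07 (limma adjusted p = 0.00576 and 0.0158). The first call was lost with median scaling, no scaling and averaging of replicates 1 and 2, and the second with that averaging (limma adjusted p over the alternatives 0.000401 to 0.285 and 0.000978 to 0.0637).

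Probe A_30_P01022075, in chr17:17481706-17482457 (R), was called higher by 0.23 ± 0.07 (limma adjusted p = 0.0267). That call was lost in 11 of 18 alternatives (adjusted p from 0.00331 to 0.879), among them leaving out immature replicate 1 (0.0508) or 4 (0.0537) or LPS replicate 1 (0.0583), 2 (0.0694) or 4 (0.0512). The last 2 bright probes were not called: A_30_P01032305, in chr8:48476637-48492537 (F), at -0.18 ± 0.07 and A_30_P01030669, in chr7:108209996-108216032 (R), at -0.003 ± 0.068 (limma adjusted p = 0.0672 and 0.975). The former was called lower in 5 alternatives, with an adjusted p between 0.00301 and 0.174 over all of them. The latter was called lower with no scaling (-0.21, limma adjusted p = 0.0466).

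Probes of overlapping intervals were grouped, since they share a locus and are not independent. Joining intervals that share at least 1 base on either strand gave 2226 groups with 1 to 50 probes (median 4). Of these, 1263 held a tested probe and 712 a called one. Called probes were only higher in 380 groups, only lower in 257 and of both directions in 75. Of 334 groups with at least 2 called probes, 259 had a single direction.

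The 4 groups with the most tested probes differed in how many were called, beside 49.8% of all tested probes of the array. The group chr19:5771425-5848475 had 25 tested of 27 probes in 7 intervals, 13 called higher and none lower, with log2 changes of -0.12 to 0.86. All 3 probes of chr19:5798135-5800557 (R) were called higher by 0.81 to 0.86, and all 3 of chr19:5801802-5802597 (R) by 0.45 to 0.66. The 3 of chr19:5834117-5835940 (R) ranged from 0.40 to 0.48 without a call. Without immature replicate 3 the group had 20 probes called higher, and with no scaling 8 higher and 1 lower. The group chr8:72663591-72673010 had 3 of 21 tested probes called higher and none lower (-0.07 to 0.88), or 6 without immature replicate 3, 5 with an intensity trend in the variance, and 1 with median or no scaling. In chr11:3521324-3554450, 1 of 21 tested probes was called, lower (-0.40 to 0.29), a count that became 0 with normexp, with a trend or with all 8 arrays above background, and 2 with median or no scaling. With no filter on dim probes 4 were called higher and 1 lower there. In chr10:66559716-66647841 none of 20 was called in limma's test, with log2 changes of -0.29 to 0.30. There 1 was called with no scaling, normexp or the replicate block. Limma gave an unadjusted p under 0.05 for 0 of these 20 probes. That count was 18 of 25 in the chromosome 19 group, 6 of 21 on chromosome 8 and 1 of 21 on chromosome 11.

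Calls often differed between probes of 1 interval and strand. Of 1054 interval names with at least 2 tested probes, 206 had every tested probe called in 1 direction, 360 had some called in 1 direction and others not called, 28 had calls in both directions and 460 had none called. The median range of the log2 change within such an interval was 0.27. Detection also differed within intervals: among 3920 interval names with at least 2 probes, 456 had all of them tested, 1520 some and 1944 none.

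The strands were sampled about equally, with 8171 F and 8010 R probes. Of the F probes 25.8% were tested and 38.9% of those called (450 higher, 368 lower), and of the R probes 28.9% and 35.5% (432 and 389). Of 1101 groups probed on both strands, 456 had a tested probe on both, 427 on 1 strand and 218 on none. Of the 146 groups called on both strands, 96 moved in the same direction only and 50 held an F and an R probe called in opposite directions.

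Probe pairs show the same pattern. Pairs of tested probes on the same strand of an interval (4454 pairs in 916 intervals) differed by a median of 0.16 log2, and pairs on opposite strands of 1 interval (2518 pairs in 376 intervals) by 0.30. When both probes of a pair were called, the direction was shared by 1138 of 1190 same-strand pairs (95.6%) and by 385 of 469 opposite-strand pairs (82.1%). Pairs share probes and loci, so these shares are a description. Across the 456 groups tested on both strands, the median changes of F and R had a Pearson correlation of 0.33 and a Spearman correlation of 0.27, over groups that share the same 8 arrays. In 271 of them the 2 medians had the same sign.

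**Figure D4:**
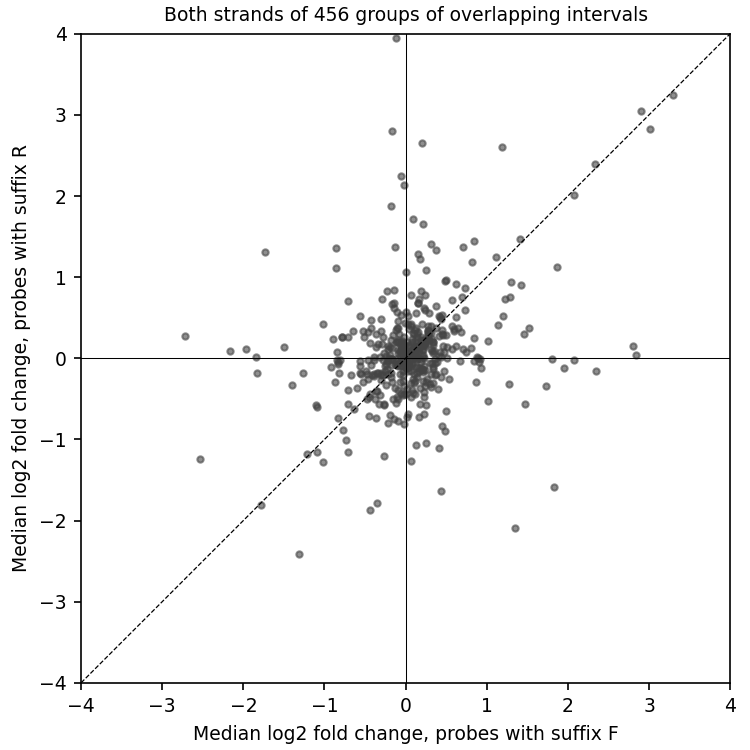
Median log2 fold change after LPS of the F probes (x axis) and of the R probes (y axis) of the same group; each point is 1 of 456 groups of overlapping intervals with a tested probe on both strands, and the dashed line marks equal change. The points scatter widely around the line, with a Pearson correlation of 0.33.

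Calls in opposite directions on the 2 strands are described for the 4 groups with the largest gap between fitted changes. That order rests partly on probes below background in 1 group, whose fitted change is not a measured size. Over probes above background on all 8 arrays, 35 of the 50 groups remained, and of the 4 groups only the one on chromosome 1 was among them with a gap of 3.32, behind chr13:60508775-60534625 at 3.43. In that interval, chosen after its values were seen, F probe A_30_P01025005 was called higher by 1.83 and R probe A_30_P01031903 lower by 1.59. In chr15:73455424-73477275 the F probe A_30_P01019326 was detected after LPS alone and was at least 3.04-fold higher (immature mean -6.28, LPS mean -3.16). The R probe A_30_P01028258 of the same interval was above background only in immature cells and at least 2.19-fold lower (-3.15 and -4.60), and 3 of the 5 tested R probes there were called lower. The 2 R probes there above background on all 8 arrays had log2 changes of -0.12 and 0.13 and were not called. On chromosome 1, the F probe A_30_P01032516 of chr1:94608820-94634671 fell by 1.74 ± 0.13, from -1.23, -1.59, -1.71 and -1.75 to -3.35, -3.47, -3.20 and -3.21. All 3 tested R probes of that interval were called higher, by 0.62 to 1.58, besides A_30_P01025587 in the nested interval named above. In both of these groups a single F probe was called opposite to 3 or more R probes. In the chromosome 15 group none of the called probes was above background on all 8 arrays.

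In the 2 remaining groups fewer probes were involved. On chromosome 9, F probe A_30_P01020518 (chr9:78104935-78116974) was at least 2.25-fold higher and R probe A_30_P01033583 (chr9:78107225-78118850) at least 2.05-fold lower. On chromosome 15, R probe A_30_P01033374 (chr15:38639259-38639546) was at least 3.02-fold higher, and both tested probes of that interval were called higher. The F probe of that group, A_30_P01024824 (chr15:38630866-38640611), was called lower by 0.31 ± 0.10 (limma adjusted p = 0.0348) although its groups overlapped, a call lost in 10 of 18 alternatives (adjusted p from 0.00588 to 0.161), including without immature replicate 1, 2 or 4 (0.0770, 0.0895 and 0.0729) or LPS replicate 1, 2 or 4 (0.0906, 0.0833 and 0.0513).

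Called interval probes were found on every chromosome probed. The share of tested probes called ranged from 25.8% on chromosome 16 to 49.0% on chromosome 1, beside 37.0% over all chromosomes. Chromosome X had the highest share called lower, 30.5% of 141 tested probes (43 probes in 17 groups, 13 of them in 1 group), with 13.5% called higher. Chromosome 19 had the lowest, 7.34% of 109, with 22.0% called higher, and 13 of its 24 probes called higher came from the single group described above. On chromosome 16, 13 of the 27 probes called higher came from the locus described above. Without the group that held most called probes, the share called was 47.0% on chromosome 1, 37.8% on X, 22.6% on 19 and 19.0% on 16. These shares count probes, several of which read the same locus, and no test between chromosomes was made.

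**Figure D5:**
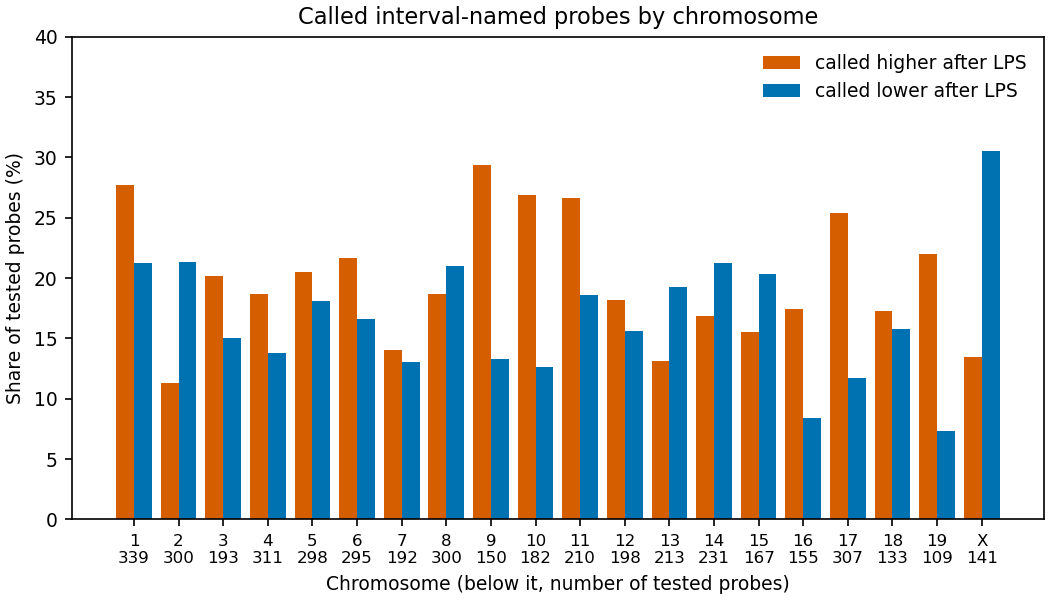
Share of tested interval probes called higher and called lower after LPS (y axis, percent) on each chromosome (x axis, with the number of tested probes below it). Chromosome X has the tallest bar for probes called lower (30.5%), and chromosome 9 the tallest for probes called higher (29.3%).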

How the data were processed

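Total RNA was labelled with Cy3 and hybridised to 1 one-colour Agilent array per sample. Per the file headers, the deposited intensity values are Agilent Feature Extraction 11.0.1.1 processed signals, background-subtracted and spatially detrended but not scaled between arrays, with raw median intensities and flags of 0 or 1 beside them. Interval names and the build, mm9, come from the deposited files; RefSeq accessions were matched to a gene list of a later assembly, used for names only. Outlier-flagged spots were dropped, 122 to 206 on each array and 2 of interval probes in all, log2 signals of a probe's spots were averaged, and each array's 75th percentile over non-control spots was subtracted.

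Non-control probes that passed background in every array of 1 group or both were fitted with limma 3.58.1 (lmFit, eBayes) in R 4.3.3 with data.table (version 1.17.8), two-sided, and adjusted over all of them. The fit was tested on simulated data. A bound sets the mean of the group that was measured against the mean of the other group with each value raised to the lowest signal flagged above background on its array. Figures were drawn with matplotlib 3.10.9. All 8 arrays lay on 1 slide, immature in 1 row and LPS in the other, so slide row and treatment cannot be told apart. The probes, the lists and the rules for naming probes were chosen with earlier results of these data known. Named were the 8 largest increases and decreases, the 4 largest bounds each way, the 6 brightest probes, the 4 groups with most tested probes and the 4 largest opposite-strand gaps, 1 probe per group where single probes are listed. The increases and decreases were taken from called probes above background on all 8 arrays whose 2 groups did not overlap. Alternatives covered scaling, background correction, the filter, the variance trend, the fold threshold, the replicate block, replicates and the grouping of intervals.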

Additional observations from a re-analysis of the deposited data

Results flagged for a closer look

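In 4 of 80 groups of 4 arrays examined, 1 array lay far from the other 3 (its gap to them, over the whole range, above Dixon's 95% critical value); chance gives about 1 in 20. For A_30_P01018494 on chromosome 6, immature replicate 1 was lowest at -7.10, the others at -5.63 to -5.40, all below background. For the bright probe A_30_P01026458 on chromosome 11, LPS replicate 4 was lowest at 7.86 beside 8.02 to 8.05. For A_30_P01022075 on chromosome 17, immature replicate 3 was lowest at 7.80 beside 7.92 to 7.95. For A_30_P01030669 on chromosome 7, immature replicate 1 was lowest at 7.88 beside 7.93 to 7.94.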

How the results depend on the processing

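Of 37 interval probes named singly, 31 kept their direction and their side of the threshold in every alternative run, and the 6 others did so in 7 to 17 of 18. Asking in addition for a log2 change of at least 1 left 291 probes higher, 272 lower and 244 groups with a called probe, in place of 882, 757 and 712. Scaling to the array median gave 551 higher and 1165 lower, and no scaling 502 and 1276; the 757 probes called lower were among those called lower in both. With no filter on dim probes 5700 were called higher and 1839 groups held a called probe, since all 16194 probes then enter and the median log2 change of the interval probes is 0.40. Leaving out 1 array at a time gave 683 to 1011 higher, 649 to 847 lower and 613 to 775 groups, the highest of each without immature replicate 3. Deviations from the group mean correlated at 0.23, 0.11, 0.10 and -0.005 between same-numbered replicates of the 2 groups. Replicates 1 and 2 of one group correlated with 1 and 2 of the other at 0.08 to 0.23. For replicates 3 and 4 the values were -0.005 to 0.27. Between 1 or 2 and 3 or 4 they were all negative, at -0.18 to -0.002. Deviations from a group mean cancel within the group, so positive values must be offset by negative ones. The labels name no pairing or batch, and what these replicates share was not tested. With the replicate block there were 833 higher, 744 lower and 696 groups. Counts of the remaining alternatives, detected-probe scaling, quantile normalization, normexp, all 8 arrays above background, an intensity trend, replicates 1 and 2 averaged and other groupings of intervals, were within 1.5 times of these. Averaging replicates 1 and 2 gave 615 higher and 545 lower. The cause of these shifts was not tested. Fitted changes of probes below background in 1 group are not measured sizes.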

Other observations

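In several loci outside the rule for naming probes most tested probes were called in 1 direction. They were chosen after their values were seen, as the groups with most called probes, and their counts were not recomputed under the alternatives. In chr11:95627874-95640824, 17 of 19 tested probes were called lower and none higher, and the 15 above background on all 8 arrays had log2 changes of -1.36 to -0.68. In chr8:26343277-26352902, 13 of 15 tested probes were called lower: all 5 F and all 5 R probes of the longest interval, and all 3 of the nested interval chr8:26347473-26348052 (R). Of the 9 above background on all 8 arrays 7 were called, and none of these 9 lay in that nested interval. In the nested interval chr8:26345571-26346095 (R) both tested probes had changes between -0.22 and 0.00. In chrX:90997595-91009570, 13 of 14 tested probes were called lower and 1 higher, and the 10 above background on all 8 arrays were all called lower (-1.49 to -0.53). Upward, chr1:175653557-175672031 had 13 of 15 tested probes called higher (0.24 to 1.41), with all 11 tested R probes among them and 2 of 4 F probes. In chr17:26911032-26917047, 13 of 17 were called higher, 12 of 13 on F and 1 of 4 on R, and the 14 above background on all 8 arrays had log2 changes of 0.62 to 0.83.

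The shares tested and called were close across interval lengths. In the shortest of 4 length classes (62 to 1758 bases) 24.8% of the probes were tested and 38.0% of those called, and in the longest (25871 bases and more) 26.2% and 36.3%. The longest interval, chr7:39351858-46480344, spans 7128487 bases, holds 1 probe and was not tested.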
